A study of Mus musculus with 4 samples.

Results

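The Id inhibitor family was followed across the cells of the adult mouse mammary gland through its 4 genes, Id1, Id2, Id3 and Id4, which were taken by symbol from the 27998 genes of one droplet-based single-cell RNA-seq table. The family was chosen by its levels and its shares of positive cells across cell types and libraries, so those values are a description here, and the p-values of the members with genotype and age are no independent evidence. On mm10 (GENCODE vM21), Id1 (ENSMUSG00000042745) lies at chr2:152736251-152737410 on the plus strand, Id2 (ENSMUSG00000020644) at chr12:25093799-25097140 on the minus strand, Id3 (ENSMUSG00000007872) at chr4:136143497-136145755 and Id4 (ENSMUSG00000021379) at chr13:48261228-48266026, both on the plus strand. Id proteins are helix-loop-helix proteins that lack the basic region needed to bind DNA. They pair with the E proteins (Tcf3, Tcf4, Tcf12) and keep them, and the tissue-specific bHLH factors that need them, off their E-box sites. In many cell types Id1, Id2 and Id3 are transcribed in response to bone morphogenetic protein (BMP) signalling through SMAD proteins. Id4 is known in the mammary gland as a gene of basal cells, and Id2 from mouse knockouts as a gene needed for alveolar development.

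The table holds sorted mammary cells of C57BL/B6 mice in 4 libraries. These were a Zeb1 MSKO library and a control library at 9 weeks of age, and a Zeb1 MSKO library and a control library at 8 weeks. The labels do not expand MSKO, name a Cre driver, give the deleted part of Zeb1 or the sort markers, or say whether a library came from 1 animal or several. With 2 libraries per genotype, p-values measure the spread between these libraries, and the smallest two-sided p of an exact permutation test would be 0.333. The 2 libraries of a genotype differ in age, so in genotype fits without a block that spread includes the age difference. In the same way, the spread in age fits without a block includes the genotype difference. Whether the age groups were also prepared apart is not known here, and an effect of age could not be told apart from one of preparation.

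Cells were assigned to classes by summed marker genes, none of which is an Id gene, and cells that passed more than 1 gate were left out. In the order Zeb1 MSKO 9 weeks, Zeb1 MSKO 8 weeks, control 9 weeks and control 8 weeks, the basal gate held 2410, 4927, 2056 and 1770 cells, the luminal progenitor gate 3180, 1645, 2653 and 3929, and the hormone-sensing luminal gate 3184, 1135, 2234 and 2535. Genes were ranked by fold over the mean of the other gated classes. Acta2, Tagln, Actg2 and Krt14 led in basal cells, Csn3, Wfdc18 and Ltf in luminal progenitors, and Prlr, Wfdc2 and Ido1 in hormone-sensing cells. The fibroblast gate was led by Clec3b, Lum and Igfbp6, the endothelial gate by Cldn5, Lyve1 and Nts, and the leukocyte gate by Jchain, S100a8 and Ccl5. Of these, Acta2, Krt14, Csn3, Wfdc18, Ltf, Prlr and Lum are markers of their own gates, so their lead was set by the gating. Fibroblasts numbered 32, 558, 25 and 397 in the same order, endothelial cells 7, 335, 8 and 319, and leukocytes 17, 49, 14 and 53. Library totals lay between 80853204 and 122122443 UMIs (unique molecular identifiers, 1 per captured RNA molecule), and every cell held at least 2566. Zeb1 itself, the targeted gene, lay between 0.0720 and 1.12 CPM (UMIs scaled to a common total) in the 3 epithelial classes of all 4 libraries and did not follow the genotype labels. In basal cells it was 0.236 and 0.647 CPM in Zeb1 MSKO at 9 and 8 weeks, against 0.107 and 0.539 CPM in control, and in luminal progenitors 1.12 and 0.824 CPM against 0.121 and 0.424 CPM. The luminal progenitors of the 9-week libraries, with 32 UMIs in the library labelled Zeb1 MSKO and 3 in the one labelled control, had intervals that did not overlap, in the order opposite to the labels. Since the deleted part of Zeb1 is not given, 3′ counts cannot check the deletion, and genotype names below are those of the labels. In fibroblasts, Zeb1 measured 53.0 and 69.2 CPM in Zeb1 MSKO and 85.1 and 60.3 CPM in control, at 9 and 8 weeks.

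The Zeb1 MSKO library at 8 weeks stood apart. Its hair follicle gate held 76 cells, against 1 cell in the other 3 libraries together, and 520 of its 4927 basal cells (10.6%) carried a UMI of Krt25, Krt27, Krt28, Krt35, Krt75, Hoxc13 or Lef1, genes of the hair follicle. In the other 3 libraries 1.99%, 2.43% and 1.19% of basal cells did so (Zeb1 MSKO 9 weeks, control 9 weeks and control 8 weeks). Those 76 gated hair follicle cells had 371 CPM of Id1, 132 CPM of Id2, 838 CPM of Id3 and 13.8 CPM of Id4. For the results that rest most on this library, values without the cells that carry such a UMI are given too, an alternative chosen after the data were seen.

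The promoters of Id2, Id3 and Id4 are shown because these members differed in where and when they were expressed. The promoter sequence of Id1 was not available here. The sequences are from RefSeq on GRCm38.p6 and run from 250 bases before to 50 bases after the transcription start, 5′ to 3′ on the strand of the gene. They cover chr12:25096043-25096342 on the minus strand for Id2, chr4:136143572-136143871 on the plus strand for Id3, and chr13:48260866-48261165 on the plus strand for Id4. The Id2 and Id3 windows lie inside the gene spans given above, so transcripts of these genes that start further upstream were not covered. Capitals mark matches to GGCGCC, a GC-rich element that SMAD proteins can bind, to CANNTG, the E-box, and to CCAAT on either strand (ATTGG on the strand shown).
Id2: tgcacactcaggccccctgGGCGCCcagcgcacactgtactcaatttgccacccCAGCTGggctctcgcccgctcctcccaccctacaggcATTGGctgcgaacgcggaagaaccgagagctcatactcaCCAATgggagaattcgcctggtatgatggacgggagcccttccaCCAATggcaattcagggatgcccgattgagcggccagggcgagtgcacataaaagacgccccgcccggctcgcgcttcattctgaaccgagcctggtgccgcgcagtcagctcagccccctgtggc
Id3: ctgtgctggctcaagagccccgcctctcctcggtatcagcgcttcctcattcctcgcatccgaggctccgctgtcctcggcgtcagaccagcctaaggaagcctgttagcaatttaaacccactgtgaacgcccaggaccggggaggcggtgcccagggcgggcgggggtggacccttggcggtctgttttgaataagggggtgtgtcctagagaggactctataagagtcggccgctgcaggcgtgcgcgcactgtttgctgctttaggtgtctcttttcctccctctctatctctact
Id4: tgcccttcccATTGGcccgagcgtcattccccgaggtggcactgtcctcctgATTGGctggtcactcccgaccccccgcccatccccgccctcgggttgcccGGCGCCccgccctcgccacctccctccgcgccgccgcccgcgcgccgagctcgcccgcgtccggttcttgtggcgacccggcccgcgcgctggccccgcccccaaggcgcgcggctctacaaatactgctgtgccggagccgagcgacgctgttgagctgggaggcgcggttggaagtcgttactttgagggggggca
The Id2 window held 1 GGCGCC, 1 CANNTG and 3 CCAAT matches, the Id4 window 1 GGCGCC, no CANNTG and 2 CCAAT matches, and the Id3 window none of the 3 motifs. GGCGCC was present in 11.9% of the 32851 mouse promoters of this length, CANNTG in 72.3% and CCAAT in 37.4%. GGCGCC and CANNTG read the same on both strands, and no match overlapped another.

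Levels are given below as CPM over the summed UMIs of a class in a library. Each UMI stands for 1 molecule tagged at its 3′ end, so levels of different genes were compared without scaling to length. The comparisons between classes are descriptions and carry no test.

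Id3 was the most abundant member in basal cells, hormone-sensing cells, fibroblasts and endothelial cells. In basal cells it measured 299.5 and 317 CPM in Zeb1 MSKO at 9 and 8 weeks, against 692 and 359 CPM in control at 9 and 8 weeks. The first 2 and the last of these libraries lay close together and the control library at 9 weeks lay above them. In fibroblasts, Id3 reached 1019 and 1678 CPM in Zeb1 MSKO and 1221 and 1259 CPM in control at the same ages, above the basal level in every library. Hormone-sensing cells had 136 and 186 CPM of Id3 in Zeb1 MSKO, against 131 and 86.8 CPM in control. Luminal progenitors had 9.55 and 36.7 CPM in Zeb1 MSKO, against 8.60 and 10.6 CPM in control, the lowest level of the 6 classes in each library. Leukocytes came next, at 16.6 and 61.7 CPM in Zeb1 MSKO and 17.9 and 64.8 CPM in control, and at 9 weeks, with 2 UMIs each, their intervals overlapped the luminal progenitor level. The 2 luminal classes did not overlap: each hormone-sensing value exceeded each luminal progenitor value. In each library fibroblasts had the highest Id3 level, then endothelial cells, then basal cells. At 9 weeks the intervals of fibroblasts and endothelial cells overlapped, and over libraries the endothelial range of 517 to 1064 CPM overlapped that of basal cells.

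Id2 was the most evenly spread member and the leading one in luminal progenitors. These cells held 116 and 112 CPM in Zeb1 MSKO at 9 and 8 weeks, against 131 and 105 CPM in control, a narrow range over the 4 libraries. Basal cells held 66.3 and 90.6 CPM of Id2 in Zeb1 MSKO, against 88.0 and 85.3 CPM in control. Every luminal progenitor value was above every basal value. Hormone-sensing cells were lower, at 33.5 and 34.7 CPM in Zeb1 MSKO, against 29.8 and 69.3 CPM in control, and the control library at 8 weeks stood above the other 3 and above the lowest basal value. The highest Id2 levels were in leukocytes, at 464 and 549 CPM in Zeb1 MSKO and 644 and 367 CPM in control, from 14 to 53 cells a library. Id2 is needed for natural killer and innate lymphoid cells, which a leukocyte gate can hold. Fibroblasts held 195 to 261 CPM and endothelial cells 45.5 to 484 CPM.

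Id1 was lower than Id3 in basal, hormone-sensing, fibroblast and endothelial cells of every library. Basal cells had 33.8 and 44.7 CPM in Zeb1 MSKO at 9 and 8 weeks, against 73.3 and 36.3 CPM in control. The control library at 9 weeks was the highest for Id1 as for Id3, and the other 3 lay together. Luminal progenitors had 10.9 and 23.6 CPM in Zeb1 MSKO, against 9.93 and 7.58 CPM in control. Hormone-sensing cells had 0.594 and 7.10 CPM in Zeb1 MSKO, against 0.919 and 0.947 CPM in control, the lowest of the epithelial classes. Fibroblasts spanned 18.9 to 184 CPM and endothelial cells 81.9 to 798 CPM. Both ranges rest on few cells at 9 weeks, where 5 and 10 UMIs were counted in fibroblasts, and 18 and 33 in endothelial cells (Zeb1 MSKO and control). The highest fibroblast values of Id1 and Id3 were in the 8-week Zeb1 MSKO library. Its fibroblasts held 85.9 CPM of the 7 hair follicle genes, against 0.690 CPM in 8-week control and 0 CPM at 9 weeks. Their 8 basal markers summed to 374 CPM, against 91.4 to 110 CPM in the other libraries. The part of other cells in these Id levels was not tested.

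Id4 was a basal gene, and it divided the libraries by age. Basal cells had 18.5 and 192 CPM in Zeb1 MSKO at 9 and 8 weeks, against 9.50 and 209 CPM in control at 9 and 8 weeks. The counts behind these levels were 392 and 5940 UMIs in Zeb1 MSKO, against 177 and 3106 UMIs in control. The ages did not overlap. Zeb1 MSKO was the higher genotype at 9 weeks and the lower one at 8 weeks. Luminal progenitors had 0.0351 and 4.40 CPM in Zeb1 MSKO, against 0.0804 and 1.88 CPM in control, and hormone-sensing cells 0.0540 and 3.46 CPM against 0.0593 and 1.18 CPM. The 9-week values rest on 1 UMI in luminal progenitors and 3 in hormone-sensing cells of Zeb1 MSKO, and on 2 in each class of control, at or below the 3 UMIs that a count of 0 allows. Fibroblasts had no Id4 UMI at 9 weeks, which allows up to 11.4 CPM in Zeb1 MSKO and 15.0 CPM in control, and 17.7 and 14.8 CPM at 8 weeks.

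**Figure D1:**
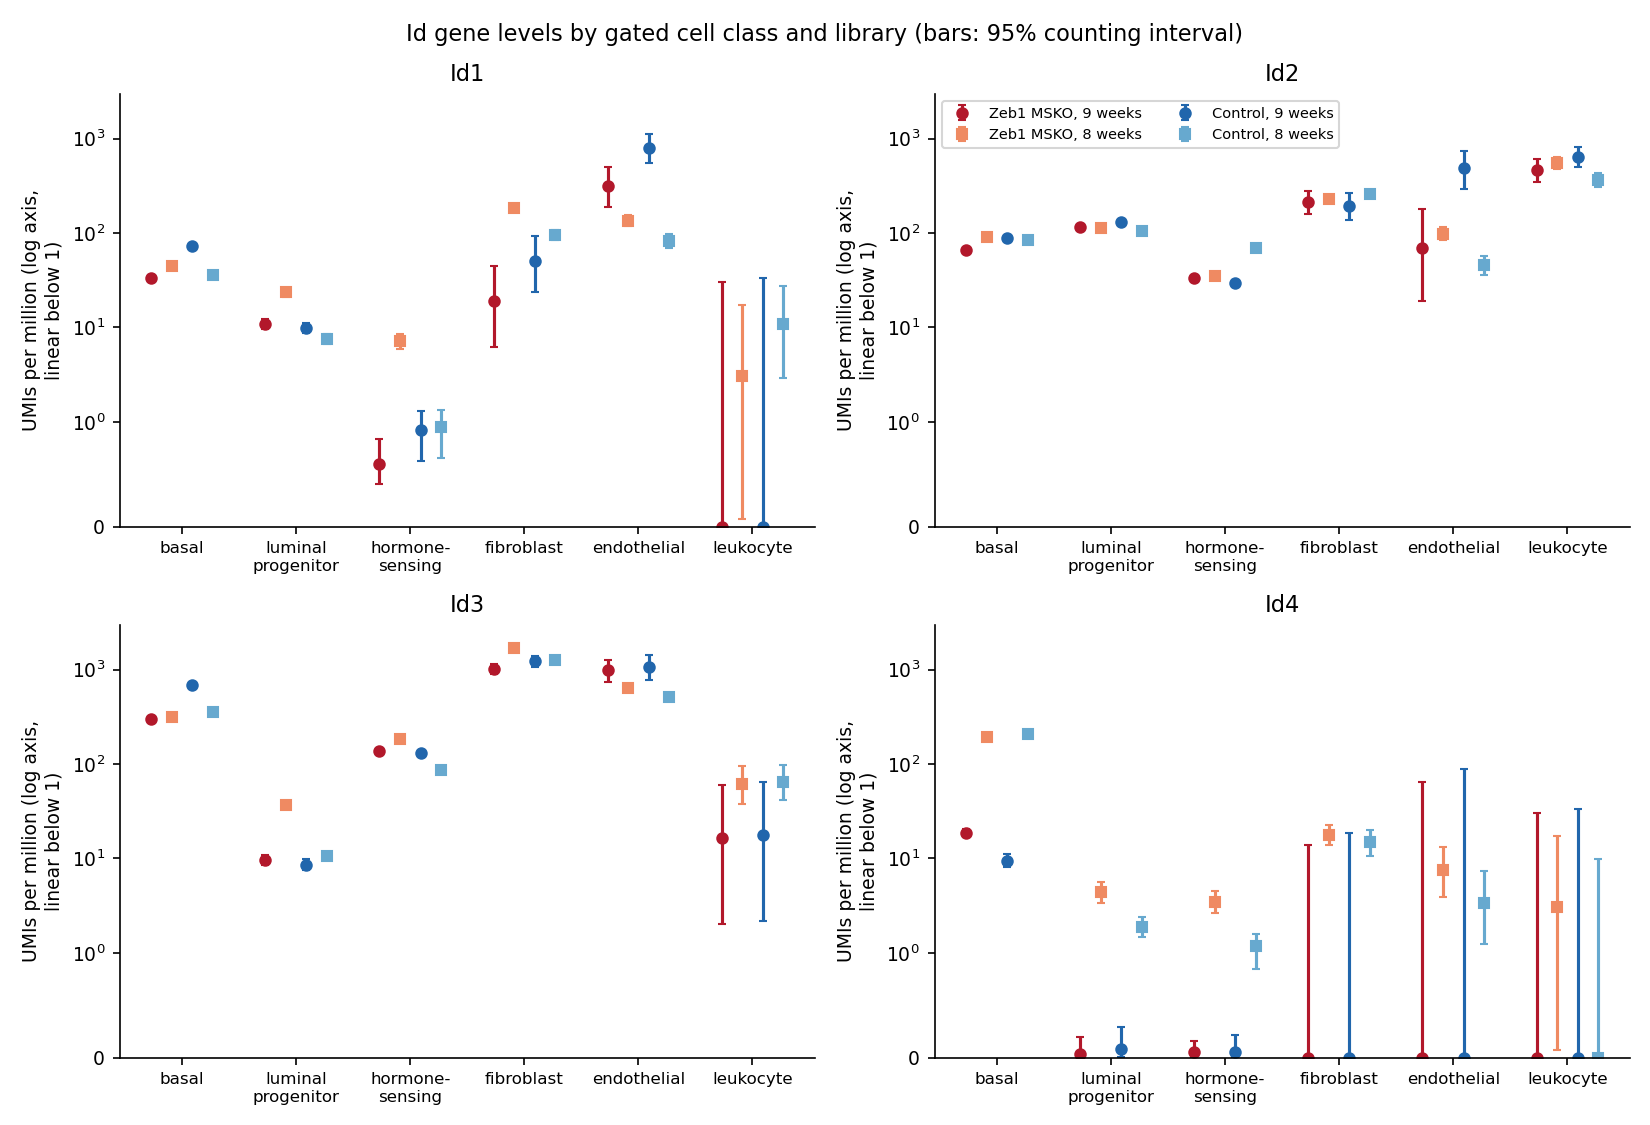
Level of each Id gene (CPM, log axis that is linear below 1) in 6 gated cell classes. Each point is 1 library, in red for Zeb1 MSKO and blue for control, round at 9 weeks and square at 8 weeks, with its exact 95% Poisson interval for counting error. In basal cells the 8-week points of Id4 sit at 192 and 209 and the 9-week points at 18.5 and 9.50.

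The share of cells with a UMI followed the levels. Thinned to 2000 UMIs per cell, 32.8% and 32.1% of basal cells had an Id3 UMI in Zeb1 MSKO at 9 and 8 weeks, against 56.2% and 37.6% in control. For Id4, 3.30% and 28.1% of basal cells had a UMI in Zeb1 MSKO, against 1.68% and 30.2% in control, and without thinning 13.7% and 54.6% against 7.73% and 66.0%. In luminal progenitors the thinned Id4 share was at most 0.800%, with median depths of 7503 to 8325 UMIs per cell, close to the 5525 to 8016 of basal cells. For Id2 the thinned share was 17.0% to 19.6% of luminal progenitors and 10.8% to 14.9% of basal cells over the 4 libraries. These shares and all intervals cover counting error only.

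Free RNA can bring basal transcripts into other droplets, and the Id UMIs in luminal cells were set against those of Krt14, a basal keratin. Krt14 is also a marker of the basal gate, so the gating itself kept it low in luminal cells and high in basal cells. The ratios are therefore descriptions and cannot tell free RNA from a cell's own RNA. Per 1000 Krt14 UMIs, luminal progenitors held 1.31 and 33.8 Id4 UMIs in Zeb1 MSKO at 9 and 8 weeks, against 2.48 and 86.3 in control. Basal cells held 5.98 and 44.2 in Zeb1 MSKO, against 2.15 and 54.6 in control. Hormone-sensing cells held 2.55 and 25.1 in Zeb1 MSKO, against 2.01 and 57.8 in control. The luminal progenitor ratio was below the basal one in both Zeb1 MSKO libraries and above it in both control libraries, with 1 and 2 UMIs behind the 9-week values. Whether the luminal Id4 UMIs come from free RNA was not tested. The Id2 ratio in luminal progenitors was 858 to 4813 per 1000 Krt14 UMIs, against 19.9 to 22.3 in basal cells. The Id3 ratio in hormone-sensing cells was 1348 to 6435, against 73.0 to 156 in basal cells. In luminal progenitors the Id3 ratio was 266 to 488.

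Set against their partners, the Id genes together outnumbered the E proteins in basal cells, while in luminal cells the 2 sums lay close together. The summed Id level in basal cells was 418 and 645 CPM in Zeb1 MSKO at 9 and 8 weeks, against 863 and 690 CPM in control. Tcf3, Tcf4 and Tcf12, the E protein genes, summed to 133 and 166 CPM there in Zeb1 MSKO, against 149 and 122 CPM in control. That made 3.15 and 3.89 Id UMIs per E protein UMI in basal cells of Zeb1 MSKO, against 5.80 and 5.64 in control, and the genotypes did not overlap. This ratio was noticed in these values and was not tested. Luminal progenitors had 1.06 and 1.15 Id UMIs per E protein UMI in Zeb1 MSKO, against 1.28 and 1.07 in control. Hormone-sensing cells had 1.32 and 1.19 in Zeb1 MSKO, against 0.851 and 0.818 in control, the reverse order of basal cells, also with no overlap. In hormone-sensing cells of the 9-week Zeb1 MSKO library Tcf12 stood at 53.6 CPM, against 101 to 109 CPM in the other 3 libraries. The make-up of the family differed by class: Id3 gave 71.6% and 49.2% of basal Id UMIs in Zeb1 MSKO at 9 and 8 weeks, against 80.2% and 52.0% in control. Id2 gave 85.1% and 63.3% of those of luminal progenitors in Zeb1 MSKO, against 87.6% and 83.9% in control. The Id4 part of the basal sum was 4.43% and 29.8% in Zeb1 MSKO, against 1.10% and 30.3% in control.

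**Figure D2:**
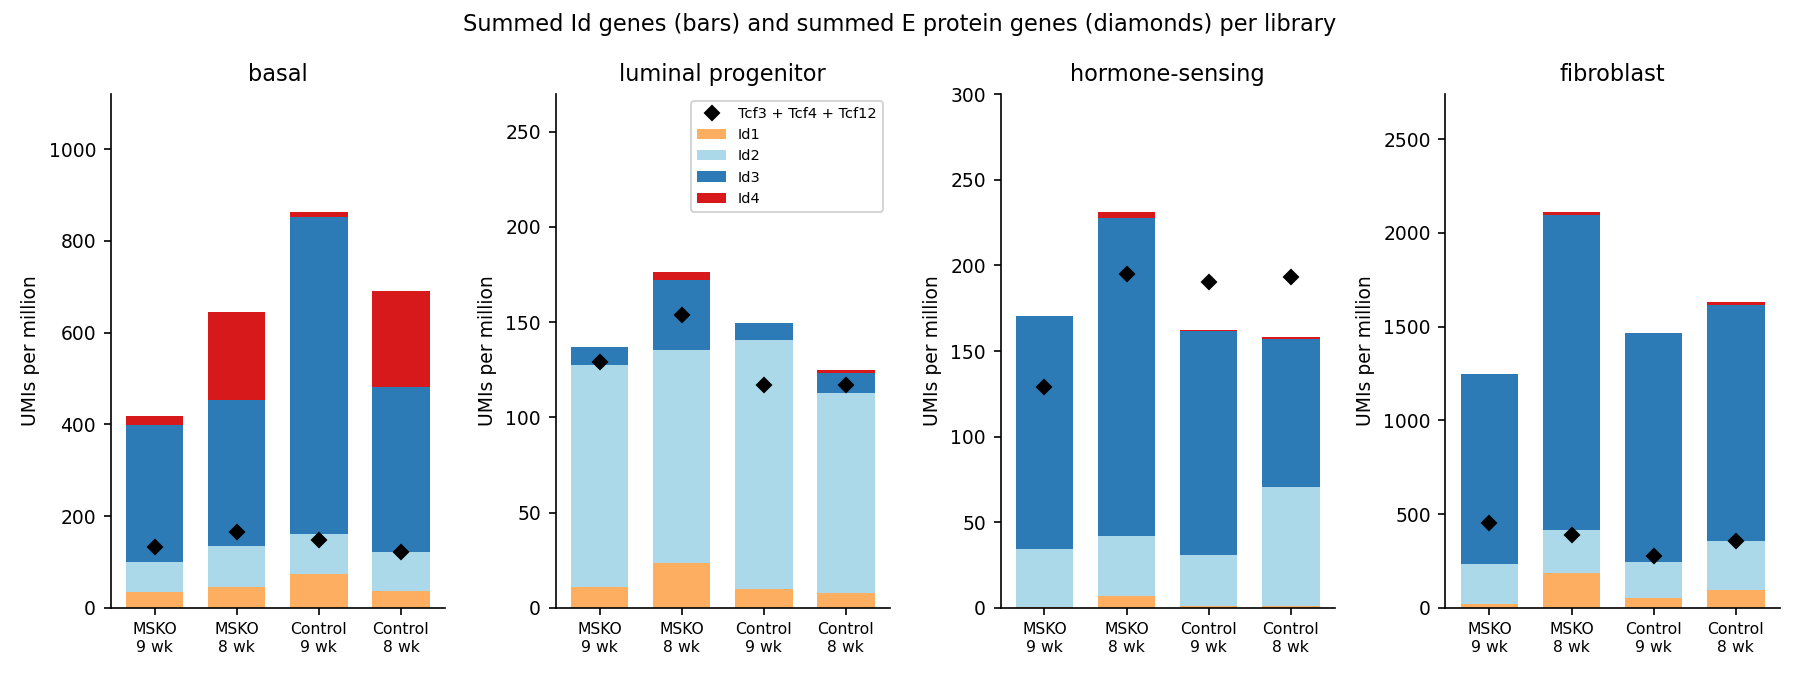
Summed level of the 4 Id genes (stacked bars, CPM) and of Tcf3, Tcf4 and Tcf12 (diamonds) in 4 gated classes, 1 bar per library, Zeb1 MSKO left of control. Id3 is the largest segment of the basal and fibroblast bars and Id2 of the luminal progenitor bars, and Id4 is visible in the 8-week basal bars at 192 and 209 CPM.

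Differences of the Id genes between the labelled genotypes were tested in each epithelial class by edgeR's quasi-likelihood test over all genes with enough counts. No Id gene passed the adjusted threshold between Zeb1 MSKO and control in any class. In basal cells 0 of 12938 genes passed an adjusted p of 0.05 (0%), with 75 genes under an unadjusted p of 0.05, and DESeq2 called 3 genes (0.0232%). With age as a block, 31 genes were called (0.24%), and none of them was an Id gene. In luminal progenitors edgeR called 0 of 12842 genes (0%), with 180 under an unadjusted p of 0.05 and 6 by DESeq2 (0.0467%). In hormone-sensing cells edgeR called 0 of 13129 (0%), with 460 under an unadjusted p of 0.05, 43 by DESeq2 (0.328%) and 2 with age as a block (0.0152%). No Id gene was among the genes called by any of these.

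In basal cells Id3 had the largest genotype difference of the family. Its log2 fold change was -0.80 ± 0.34 (SE, edgeR, adjusted p = 1, unadjusted p = 0.0486), and it was lower in Zeb1 MSKO than in control at both ages. At 9 weeks the log2 ratio of Zeb1 MSKO to control was -1.21 and at 8 weeks -0.18, so the control library at 9 weeks carries most of it. Without that library the fold change was -0.30. Id1 in basal cells had a log2 fold change of -0.51 ± 0.39, Id2 of -0.19 ± 0.31 and Id4 of -0.11 ± 1.35 (SE, edgeR, adjusted p = 1 for each).

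In luminal cells Id1 and Id3 were higher in the Zeb1 MSKO library at 8 weeks than in the other 3. The fitted genotype differences in luminal progenitors were 0.91 ± 0.41 for Id1 and 1.18 ± 0.57 for Id3 (log2, SE, edgeR, adjusted p = 1 for both). In hormone-sensing cells they were 2.03 ± 1.12 for Id1 and 0.60 ± 0.30 for Id3 (edgeR, adjusted p = 0.999 for both). Without cells with a hair follicle UMI the differences were 0.64 and 0.91 in luminal progenitors, and 1.57 and 0.59 in hormone-sensing cells, for Id1 and Id3. The same library held more RNA of other cells. In its luminal progenitors the 7 hair follicle genes summed to 20.1 CPM, against 0.0351 to 0.161 CPM in the other libraries, and 0 of the 7 were at 0 there, against 5 or 6 of 7 elsewhere. Its 6 fibroblast markers summed to 77.0 CPM, against 3.70 to 24.5 CPM, and its 8 basal markers to 299 CPM, against 70.3 to 160 CPM. Among its luminal progenitors, 189 of 1645 cells (11.5%) had a hair follicle UMI, with 60.2 CPM of Id1 and 83.7 CPM of Id3. Without them, Id1 stood at 17.5 CPM and Id3 at 28.8 CPM, still above the control library of that age. In hormone-sensing cells, where 210 of its 1135 cells (18.5%) had such a UMI, Id1 stood at 5.11 CPM without them, against 7.10 CPM in all cells of the gate. In basal cells of that library, leaving them out took Id1 to 29.5 CPM, against 44.7 CPM with them, and turned the 8-week genotype ratio of Id1 (log2) to -0.31, against 0.30 with them. How much of the luminal difference comes from other cells was not tested.

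**Figure D3:**
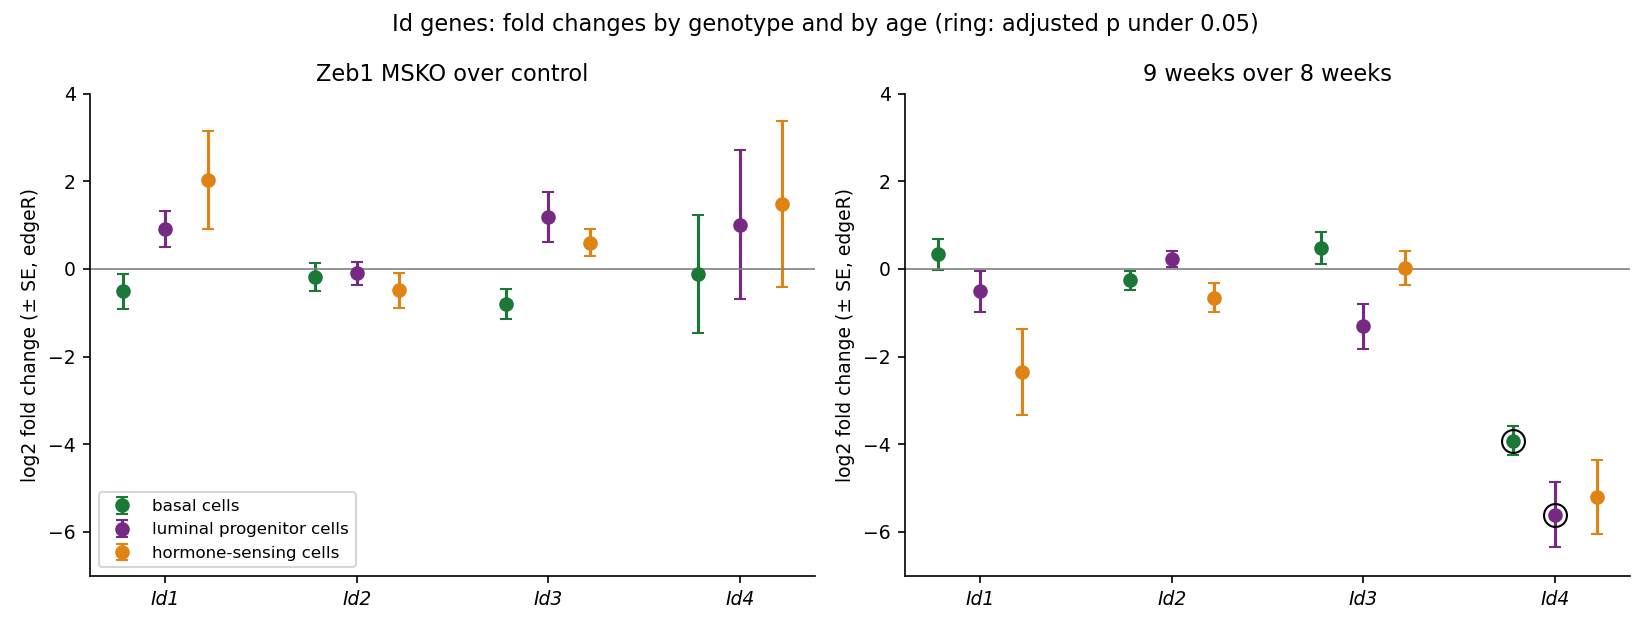
Fitted log2 fold change of each Id gene with its standard error, for Zeb1 MSKO over control (left) and 9 weeks over 8 weeks (right), in basal, luminal progenitor and hormone-sensing cells. Rings mark an adjusted p under 0.05, which Id4 reached with age in basal cells (-3.92) and in luminal progenitors (-5.61), and no Id gene reached with genotype.

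Between the ages, Id4 fell and the other 3 members did not pass the test. In basal cells the log2 fold change of Id4 at 9 over 8 weeks was -3.92 ± 0.33 (SE, edgeR, adjusted p = 0.00395), lower at 9 weeks in both genotypes, by a log2 ratio of -3.37 in Zeb1 MSKO and -4.45 in control. The same fit called 248 of 12938 genes (1.92%), 13 higher and 235 lower at 9 weeks, and Id4 ranked 33 by size and 13 by p among all genes tested. DESeq2 called 716 genes (5.53%) and edgeR with genotype as a block 620 (4.79%). Every alternative run kept the call of Id4, with log2 fold changes from -4.44 to -3.52. The fold changes of the others were 0.33 ± 0.35 for Id1, -0.26 ± 0.21 for Id2 and 0.48 ± 0.37 for Id3 (log2, SE, edgeR, adjusted p = 0.629, 0.527 and 0.495). Id3 was higher at 9 weeks in control by a log2 ratio of 0.95 and near level in Zeb1 MSKO at -0.08.

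Some markers of other cell types were also lower at 9 weeks. In the basal fit, 5 of the 6 fibroblast markers were lower and edgeR called 3 (the collagen genes Col1a1 and Col3a1, and Lum). The median log2 fold change of the 6 was -1.53. Their summed basal level was 175 and 228 CPM in Zeb1 MSKO at 9 and 8 weeks, against 203 and 146 CPM in control, which does not divide by age. Of the 8 basal markers edgeR called none, DESeq2 called 2 higher (Mylk and Oxtr) and edgeR with genotype as a block 3 higher (with Acta2), and their median log2 fold change was 0.51, against 0.01 over all genes. Krt14 stood at 3102 and 4347 CPM in Zeb1 MSKO and at 4427 and 3828 CPM in control. The part of such changes in the Id4 value was not tested. The antisense gene A330033J07Rik, which overlaps Id4, had 0 to 8 basal UMIs a library. The noncoding gene A330048O09Rik, 6387 bases from Id4, had 8.65 and 8.45 CPM in Zeb1 MSKO at 9 and 8 weeks, against 5.53 and 8.22 CPM in control, without the age difference of Id4.

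In luminal progenitors Id4 also passed the test, with a log2 fold change of -5.61 ± 0.74 (SE, edgeR, adjusted p = 0.0354), in a fit that called 113 of 12842 genes (0.88%), 6 higher and 107 lower. DESeq2 called 518 genes there (4.03%) and edgeR with genotype as a block 152 (1.18%). In hormone-sensing cells it did not, at -5.21 ± 0.84 (adjusted p = 0.143, edgeR, with 0 of 13129 genes called (0%), 1534 genes under an unadjusted p of 0.05, 458 by DESeq2 (3.49%) and 12 with genotype as a block (0.0914%)). These 2 values rest on 1 to 3 UMIs at 9 weeks and depend on the prior count. A stricter luminal progenitor gate ended the call in luminal progenitors (edgeR, adjusted p = 0.0637), and so did leaving out the Zeb1 MSKO library of 8 weeks (adjusted p = 0.0603) or of 9 weeks (adjusted p = 0.0763). In the luminal progenitor fit of all 4 libraries, all 6 fibroblast markers were lower at 9 weeks, with a median log2 fold change of -3.90. Of these edgeR called 3, and DESeq2 and edgeR with genotype as a block called 5 each. The part of these markers' cells in the Id4 value was not tested. Id3 in luminal progenitors had -1.31 ± 0.51 (edgeR, adjusted p = 0.320), where the Zeb1 MSKO library at 8 weeks was the one that stood above the rest. Without the control library of 8 weeks it was called, at -1.94 (edgeR, adjusted p = 0.0164), and without the Zeb1 MSKO library of 8 weeks it was -0.24.

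Within the basal class, Id1, Id2 and Id3 were found in the same cells more often than the product of their shares, and the ratios of Id4 with each of them lay near 1. At 2000 UMIs per cell, cells with both Id1 and Id2 were 1.84 and 1.96 times as frequent as the product of the single shares in Zeb1 MSKO at 9 and 8 weeks, against 1.53 and 2.27 times in control. For Id1 with Id3 the ratio was 1.91 and 1.91 in Zeb1 MSKO, against 1.48 and 2.03 in control, and for Id2 with Id3 1.42 and 1.35, against 1.21 and 1.49. For Id4 with Id1 it was 0.871 and 0.956 in Zeb1 MSKO, against 0.937 and 1.05 in control, and for Id4 with Id3 between 0.882 and 0.981 in the 4 libraries. For Id4 with Id2 it was 0.932 and 1.14 in Zeb1 MSKO, against 1.16 and 1.04 in control, values close to the lowest ratio of Id2 with Id3. Without the cells that had a hair follicle UMI, the Id1 with Id2 ratio of the 8-week Zeb1 MSKO library was 1.69. Cells of 1 library share their source, so these ratios are descriptions over 4 libraries.

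Basal cells with high immediate early genes, the fast transcriptional response that tissue dissociation is known to set off, had more Id1, Id2 and Id3. Each library was split at its median of 17 summed immediate early genes (Fos, Jun, Egr1 and others). Id1 measured 55.6 and 57.6 CPM in the upper part in Zeb1 MSKO at 9 and 8 weeks, and 100.3 and 49.5 CPM in control. In the remaining cells it measured 14.4 and 31.3 CPM in Zeb1 MSKO and 48.2 and 24.8 CPM in control. The log2 difference for Id2 was 1.45 and 1.01 in Zeb1 MSKO and 1.01 and 1.74 in control, and for Id3 1.41 and 0.58 in Zeb1 MSKO and 0.85 and 1.05 in control. Id4 did not follow, with log2 differences of -0.09 and 0.01 in Zeb1 MSKO and 0.23 and -0.03 in control. The parts had like depths, with median UMIs of 7406 in the upper part and 8238 in the rest in the 9-week Zeb1 MSKO library. In luminal progenitors Id1 alone was higher in the upper part in all 4 libraries, by 0.55 to 1.42 (log2), while Id2 ranged from -0.12 to 0.53.

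**Figure D4:**
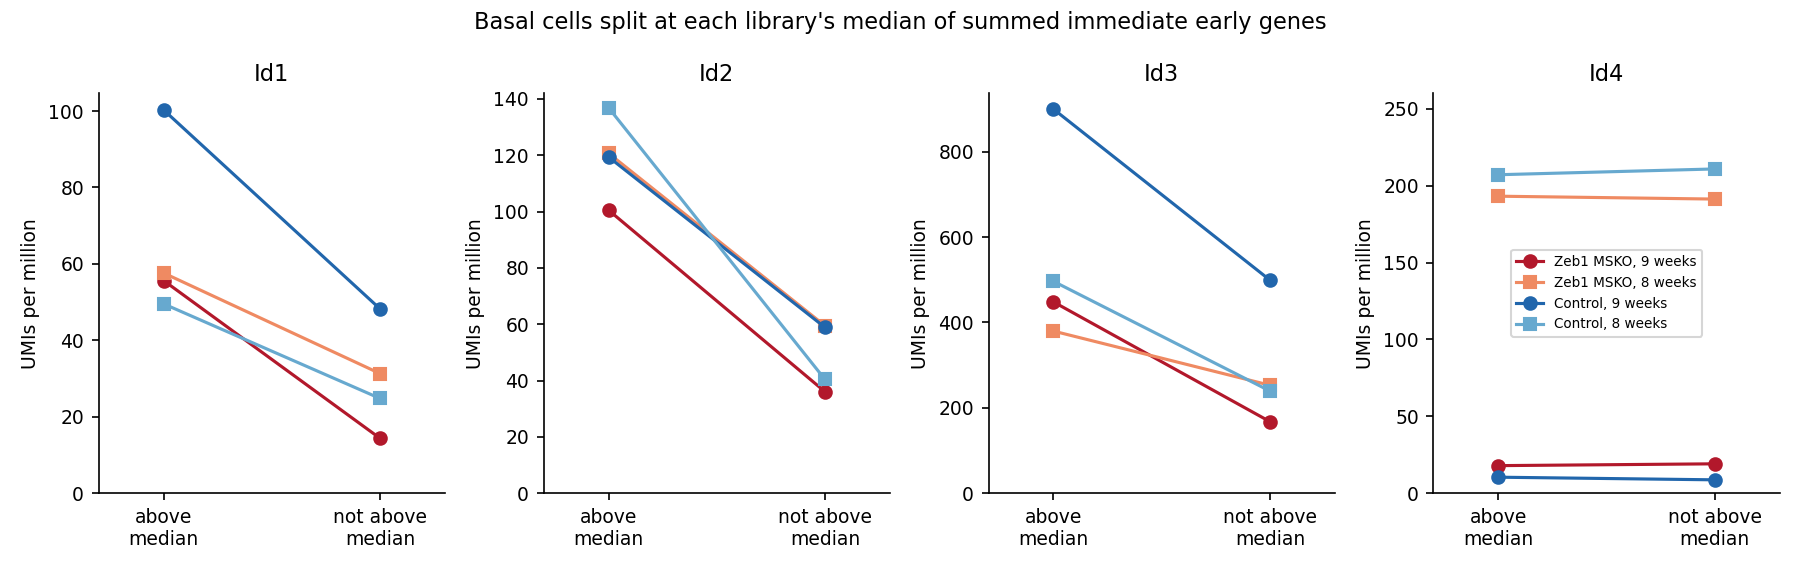
Level of each Id gene (CPM) in basal cells above the library's median of summed immediate early genes (left points) and in the other basal cells (right points), with 1 line per library. Id1, Id2 and Id3 are higher on the left in all 4 libraries, and the Id4 lines are nearly flat.

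The contractile genes Acta2, Myh11, Cnn1 and Mylk, of the smooth muscle-type programme of myoepithelial cells, split the basal class the other way. They are also markers of the basal gate. Cells of the upper part were deeper in each library. Median UMIs were 8451 against 6981 in the 9-week Zeb1 MSKO library and 8856 against 6549 in the 8-week control. In cells above the library's median of these genes, Id1 was lower by log2 ratios of -0.66 and -1.68 in Zeb1 MSKO at 9 and 8 weeks, and of -0.95 and -1.06 in control. For Id2 the ratios were -0.41 and -0.51 in Zeb1 MSKO and -0.46 and -0.39 in control, and for Id3 -0.71 and -0.88 in Zeb1 MSKO and -0.58 and -0.83 in control. Without cells with a hair follicle UMI the Id1 ratio of the 8-week Zeb1 MSKO library was -0.87. Id4 again lay near 0, at 0.10 and 0.15 in Zeb1 MSKO and -0.43 and -0.09 in control.

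Basal cells with G2/M genes were few, between 19 and 59 a library. In 3 libraries they had less Id1 and Id3 than the other basal cells: Id3 measured 37.4 CPM in them against 312 CPM in the rest in the 9-week Zeb1 MSKO library, 79.1 against 703 CPM in the 9-week control and 108 against 373 CPM in the 8-week control. In the 8-week Zeb1 MSKO library the order was turned, at 860 against 306 CPM. There 12 of the 39 cells were left once those with a hair follicle UMI were removed, with 257 CPM of Id3 against 301 CPM in the rest, and Id1 measured 39.6 CPM in them from 4 UMIs, against 447 CPM before. Among luminal progenitors, cells rich in milk gene transcripts had more Id2 in 3 of 4 libraries, 172 against 113 CPM in Zeb1 MSKO at 9 weeks, 157 against 129 CPM in control at 9 weeks and 154 against 104 CPM in control at 8 weeks. In the 8-week Zeb1 MSKO library, with 29 such cells, it was 106 against 112 CPM. The 8-week control value also rests on few such cells, 47 with 53 Id2 UMIs. In hormone-sensing cells, Id3 was slightly lower in cells with a Pgr UMI, the progesterone receptor gene, in each library, at 131 against 150.4 CPM in Zeb1 MSKO at 9 weeks and 83.2 against 106 CPM in control at 8 weeks.

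The pathway around the family was read from lists of BMP ligands, antagonists, receptors, SMADs, BMP targets, and E proteins with other bHLH factors. With genotype, none of their genes was called by edgeR in any class. In basal cells the E protein and bHLH list had 10 of 14 genes tested, 7 higher and 3 lower in Zeb1 MSKO, with a median log2 fold change of 0.21, against 0.01 over all genes tested. The BMP targets had 10 of 11 tested, 5 higher and 5 lower, with a median of 0.11. With age as a block, which called 0.24% of all genes, 3 of the 10 BMP targets were called in basal cells: the homeobox genes Msx2 (edgeR, adjusted p = 0.00647) and Dlx3 (log2 fold change 2.11, edgeR, adjusted p = 0.0430) rose in Zeb1 MSKO, and Nog, which encodes the BMP antagonist noggin, fell by 2.02 (log2, edgeR, adjusted p = 0.0492). Msx2 stood at 2.18 and 16.7 CPM in Zeb1 MSKO at 9 and 8 weeks, against 1.56 and 1.48 CPM in control, so that the library with hair follicle cells was the highest. Without the cells with a hair follicle UMI that library had 3.37 CPM of Msx2, against 16.7 CPM with them, and 0.975 CPM of Dlx3, against 4.92 CPM with them. Nog stood at 0.378 and 1.42 CPM in Zeb1 MSKO, against 2.36 and 4.04 CPM in control. Ligands in basal cells were led by Bmp7, at 85.4 and 57.8 CPM in Zeb1 MSKO at 9 and 8 weeks, against 50.6 and 67.5 CPM in control, and Bmp4 was low at 0.376 to 1.49 CPM. The type I receptor gene Bmpr1a stood at 31.5 to 36.1 CPM in all 4 libraries, and the type II receptor gene Bmpr2 at 33.9 to 43.3 CPM.

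With age, 2 genes of these lists passed the test in basal cells and both fell. Fst encodes follistatin, a secreted protein that binds activins and some BMPs. It measured 103 and 529 CPM in Zeb1 MSKO at 9 and 8 weeks, against 159 and 414 CPM in control, with no overlap between ages and a log2 fold change of -1.91 ± 0.26 (SE, edgeR, adjusted p = 0.0221). Acvr2b, an activin type II receptor gene, measured 1.65 and 7.87 CPM in Zeb1 MSKO, against 1.66 and 5.39 CPM in control, with a log2 fold change of -2.07 ± 0.30 (edgeR, adjusted p = 0.0251). By edgeR the counts were 1 of 7 antagonists, 1 of 7 receptors, and none of 4 ligands, 7 SMAD genes, 10 BMP targets and 10 E protein and bHLH genes tested, against 1.92% of all genes. With genotype as a block, which called 4.79% of all genes, Bmp2, Msx1, Msx2 and Hes1 also fell, and DESeq2, which called 5.53%, also had Msx1 and Hes1 lower and Bhlhe40 higher. Msx2 was highest in the 8-week Zeb1 MSKO library, which held hair follicle cells. Without the cells with a hair follicle UMI, Msx2 stood at 2.24 and 3.37 CPM in Zeb1 MSKO at 9 and 8 weeks, against 1.40 and 1.51 CPM in control. The median log2 fold changes, in the order of the lists counted above, were -0.37, -0.05, -1.05, -0.14, -0.60 and 0.05, against 0.01 over all genes. Of the immediate early genes, Socs3, a feedback inhibitor of cytokine signalling, rose by 1.46 ± 0.21 and Klf2 fell by 1.18 ± 0.22 (log2, SE, edgeR, adjusted p = 0.0240 and 0.0454). Smad7 and Bambi, feedback inhibitors of the pathway and BMP targets like Id1 to Id3, were not called. Bambi stood at 98.8 and 117 CPM in Zeb1 MSKO and 89.4 and 90.7 CPM in control. Without the cells with a hair follicle UMI, Smad7 stood at 73.4 and 134 CPM in Zeb1 MSKO at 9 and 8 weeks, against 157 and 105 CPM in control. Its highest value was in the 9-week control library, as for Id1 and Id3, and so were those of the BMP targets Atoh8 and Hey1. The other BMP targets on the list, Bambi, Dlx3, Msx1, Msx2, Nog, Smad6, Smad9 and Tgfbr3, were highest in other libraries without these cells. In luminal progenitors Hey1, a bHLH repressor gene on 2 of the lists, rose with age, at 143 and 55.5 CPM in Zeb1 MSKO at 9 and 8 weeks, against 145 and 49.5 CPM in control (log2 fold change 1.49 ± 0.17, edgeR, adjusted p = 0.0269).

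Over 21 sums of class and library with at least 20 cells, the genes most like each member among 5433 genes averaging 20 CPM or more were found by Pearson correlation of log2(CPM + 1). Id1 was most like Gja1 (r = 0.90) and Bambi (r = 0.89), followed by Fzd1, Tspan5 and Fmr1. Id2 was most like Sh3kbp1 (r = 0.91), S100a4, Pim1, Celf2 and Cd44. Id3 was most like Prnp (r = 0.96), Oat, Marcks, Zfand3 and Prss23. Id4 was most like Igfbp3 (r = 0.92), Hspa2, Fem1b, Phf10 and Nop58. Among the members, r was 0.63 for Id1 with Id3, 0.54 for Id1 with Id4, 0.41 for Id3 with Id4, 0.28 for Id1 with Id2, 0.06 for Id2 with Id3 and -0.02 for Id2 with Id4. The sums share libraries and free RNA, and these values are descriptions.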

How the data were processed

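RNA of sorted mouse mammary cells was captured with a droplet-based 3′ kit, and 1 table of all 4 libraries was used. Its values are raw UMI counts per gene and cell, which the authors deposited without normalization. Per the submitters' processing notes they used Cell Ranger 2.1.0 and mm10, and each cell's library is read from its barcode suffix, per the labels. Of 36884 barcodes, 36470 had at least 500 genes and at most 10% mitochondrial UMIs. 674 barcode sequences occur in 2 libraries and 8 in 3.

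Cells were gated on summed markers per 10000 UMIs (minimum 15 basal, 20 luminal progenitor, 10 hormone-sensing, 30 fibroblast and hair follicle, 7.5 endothelial, leukocyte and pericyte), with minima set at the valley of each distribution after the data were seen. No doublet caller was run: 2581 cells that passed more than 1 gate were left out, doublets within a class remain, and 333 cells passed no gate. Counts were summed per class and library, and sums were tested with edgeR 4.0.16 (quasi-likelihood, TMM, Benjamini-Hochberg over all genes tested, threshold 0.05), with DESeq2 1.42.0 as an alternative. The libraries pair by their labelled age: over genes, the 9 minus 8 week differences of the genotypes correlated with r of 0.42, 0.32 and 0.28 in basal, luminal progenitor and hormone-sensing cells. The edgeR steps were run on simulated basal sums with large genotype changes and no age difference. These libraries do differ by age, so that run cannot say which genotype changes the fits here would miss. Fibroblasts and endothelial cells were not tested, having under 50 cells a library at 9 weeks. Shares of cells were thinned by exact expectation to 2000 UMIs. A pseudocount of 0.1 CPM was added in ratios within an age or genotype, and of 1 CPM in ratios between parts of a class.

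The members and gene lists were chosen with earlier results of these data known, and the levels by class and library, which the choice named, are descriptions. Named genes are the 4 members, the 5 most correlated genes of each, and in each list up to 4 of the highest level and any that passed.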

Additional observations from a re-analysis of the deposited data

Results flagged for a closer look

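Several Id genes moved in opposite directions in the pairs of libraries compared. None of these differences was tested, because 1 library for each genotype and age leaves no spread for an interaction.

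In basal cells, the log2 ratio of Zeb1 MSKO to control was -1.12 at 9 weeks and 0.30 at 8 weeks for Id1, -0.41 and 0.0871 for Id2, and 0.96 and -0.12 for Id4. The ratio of 9 to 8 weeks in the same cells was -0.40 in Zeb1 MSKO and 1.01 in control for Id1, -0.45 and 0.0449 for Id2, and -0.0836 and 0.95 for Id3. Without the cells that had a hair follicle UMI, the 8-week genotype ratios of Id1 and Id2 were -0.31 and -0.11, with the same sign as at 9 weeks, and the age ratios in Zeb1 MSKO of Id1 and Id3 were 0.21 and 0.0132, with the same sign as in control. The age ratio of Id2 still differed in sign without them, at -0.23 in Zeb1 MSKO and 0.0507 in control.

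In luminal progenitors, Id1 had an age ratio of -1.11 in Zeb1 MSKO and 0.39 in control, and Id2 a genotype ratio of -0.17 at 9 weeks and 0.0899 at 8 weeks. In hormone-sensing cells, the genotype ratio was -0.55 at 9 weeks and 2.78 at 8 weeks for Id1, and 0.17 and -1.00 for Id2. The age ratio of Id3 there was -0.45 in Zeb1 MSKO and 0.60 in control. In luminal cells each of these pairs still differed in sign without the cells with a hair follicle UMI: Id1 in luminal progenitors had an age ratio of -0.68 in Zeb1 MSKO and 0.38 in control, and Id1 in hormone-sensing cells a genotype ratio of -0.63 at 9 weeks and 2.31 at 8 weeks.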

How the results depend on the processing

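Alternatives moved the counts of called genes, and leaving out 1 library took several genotype fold changes of the Id genes through both signs. For Zeb1 MSKO over control in basal cells, where edgeR called 0 genes, DESeq2 called 3, no filter on low counts 58, age as a block (replicate block) 31, and leaving out 1 library 0 to 33. In luminal progenitors DESeq2 called 6 and no filter 77, and in hormone-sensing cells DESeq2 43, no filter 3 and age as a block 2. For 9 over 8 weeks in basal cells (248 genes), DESeq2 called 716, no filter 1567, genotype as a block 620, cells without hair follicle UMIs 157, and leaving out 1 library 172 (without the 8-week Zeb1 MSKO library) to 1433 (without the 9-week control). In luminal progenitors (113 genes) the counts were 518, 1056 and, leaving out 1 library, 57 (without the 9-week Zeb1 MSKO library) to 217 (without the 8-week control). In hormone-sensing cells (0 genes) they were 458 by DESeq2, 210 without a filter, 12 with genotype as a block, 5 with a stricter gate, 25 without the 5% of cells with the most UMIs, 7 at a mitochondrial share of at most 5%, 19 without hair follicle UMIs, and 0 to 8 leaving out 1 library.

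No Id gene was called with genotype under any alternative. With age as a block the log2 fold change of Id4 in basal cells was 0.35, the reverse sign of the reported value. Leaving out 1 library gave genotype ranges (log2) in basal cells of -0.91 to 0.0314 for Id1, -0.45 to 0.0479 for Id2 and -2.66 to 3.48 for Id4, in luminal progenitors of -0.24 to 0.0662 for Id2, -0.0253 to 1.83 for Id3 and -4.70 to 4.58 for Id4, and in hormone-sensing cells of -0.58 to 2.92 for Id1, -0.96 to 0.20 for Id2 and -3.36 to 4.75 for Id4.

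The fall of Id4 with age in basal cells was called under every alternative run. In luminal progenitors it was -4.08 and not called with a stricter gate, and -6.23 to -4.97 leaving out 1 library, not called without either Zeb1 MSKO library. In hormone-sensing cells it was called by DESeq2 (-5.31) and without a filter (-5.18), and ranged from -5.81 to -4.24 leaving out 1 library. Id3 in luminal progenitors was called without a filter (-1.28), and ranged from -1.94 (called, without the 8-week control) to -0.24 leaving out 1 library. Leaving out 1 library gave age ranges of -0.34 to 0.82 for Id1 and -0.26 to 0.99 for Id3 in basal cells, -1.11 to 0.44 for Id1 in luminal progenitors, and -0.43 to 0.70 for Id3 in hormone-sensing cells. The cause of each change was not tested. The planned fits of fibroblast and endothelial cells were not run. At 9 weeks, Id4 in luminal cells rests on 1 to 3 UMIs, and the few stromal cells limit every member there.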
